A study of Homo sapiens with 8 samples.

Results

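The colon epithelium differentiation and brush border genes examined here are 31 genes, taken by symbol from a fixed list, of the 40693 symbols in the deposited tables. All 31 were found, each in a single entry. They were measured by RNA sequencing of total RNA in SW480 and SW620, established human colorectal adenocarcinoma lines. The labels give SW480 as Dukes' type B and SW620 as Dukes' type C, a staging of how far a colorectal tumour has spread. Untreated SW480 and untreated SW620 have 1 library each. SW620 carrying a hairpin that targets FOXA2 (shFOXA2) and SW620 carrying a control hairpin (shNC) have 3 libraries each. FOXA2 is a pioneer transcription factor of gut endoderm and liver. Each hairpin was expressed from a U6 promoter in a lentiviral vector that also carries puromycin resistance and mCherry, and stable populations were selected with puromycin, so that both hairpin groups share the vector and the selection. The shFOXA2 titles read SW620_shFOXA2_1 with a replicate number, which points to the first of the listed FOXA2 hairpins without spelling it out. Whether replicates were grown as separate cultures was not given in the sources used here, so p-values measure only the spread between these libraries.

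The colon surface is lined by absorptive cells, the colonocytes, which mature as they leave the crypt base. Their upper face carries a brush border, a carpet of microvilli in which actin bundles held by villin are tied to the membrane by ezrin and linked at their tips by protocadherins anchored to harmonin. Mature colonocytes exchange chloride and bicarbonate, hydrate carbon dioxide with carbonic anhydrases, and answer the peptides guanylin and uroguanylin through a receptor that makes cyclic GMP. The homeobox factors CDX1 and CDX2 are known for setting intestinal identity, and CDX2, KRT20 and CDH17 are used as markers of colorectal origin.

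Total counts over genes ran from 7478411 to 13076566 in the 6 hairpin libraries, against 72323506 in SW480 and 95935348 in SW620. Mitochondrial genes took 4.455% to 4.823% of counts in the hairpin libraries and 11.75% and 11.11% in the untreated lines, so these sets differ in more than the hairpin. Levels are given in CPM, the count scaled to a common library total. A limit of 3 counts is 0.0313 CPM in SW620 and 0.401 CPM in the shallowest library, shFOXA2 replicate 2, and covers counting error only. FOXA2 itself stood at 52.4, 48.9 and 51.8 CPM in shNC replicates 1 to 3 and at 30.2, 29.3 and 22.2 CPM in shFOXA2 replicates 1 to 3. Library totals were scaled by the trimmed mean of M values (TMM) for these CPM, and the log2 fold change of FOXA2 was -0.91 (adjusted p = 6.88e-10, SE 0.09). The epithelial markers EPCAM, CDH1, KRT8, KRT18 and KRT19 summed to 7931 to 8671 CPM in shNC, 7981 to 8410 CPM in shFOXA2, 6090 CPM in SW480 and 5854 CPM in SW620, so all groups carried epithelial markers. In bulk RNA, fewer cells of a type and less RNA per cell cannot be told apart.

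The target of the first FOXA2 hairpin is shown because earlier work on these data ranked 7-base stretches of it among those shared with the 3' untranslated region (UTR) of genes that fell, and the listed control target stands beside it. Capitals mark 8 bases that contain the 2 overlapping stretches AACACGT and ACACGTA.
FOXA2-shRNA1: gaacggcatgAACACGTAcat
shControl: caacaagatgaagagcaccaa
Of the 31 genes, all with an annotated 3' UTR, 1 held either stretch: VIL1, in transcript ENST00000248444.9, from base 3494 of the 3959 bases of its 3' UTR.
VIL1: aaatgcaaagACACGTAaaagaattaa
Among tested genes with a 3' UTR, 743 of 12441, or 5.97%, held a stretch. VIL1 rose with the FOXA2 hairpin, as given with its values further on, and EPS8L3, which fell, held neither stretch. The part of these stretches in the level of any gene was not tested.

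Some of the listed colonocyte genes were silent in these lines. Silent here means under 1 CPM of the table total in each of the 8 libraries, and 14 of the 31 genes met it. The share of all symbols under that limit was not counted, so 14 of 31 cannot be called high or low. In the hairpin libraries, 16 of the 31 genes and 16100 of the 40693 symbols passed the expression filter for testing. The 14 silent genes were CDX1, ISX, MYO7B, GPA33, CA1, CA4, SLC26A3, AQP8, CLCA4, MS4A12, GUCA2A, GUCA2B, FABP2 and MEP1A. CA4, MS4A12 and GUCA2B had 0 counts in all 8 libraries, and 9 of the 14 had at most 3 counts in any library. At the upper edge of the silent class were MYO7B with a highest level of 0.541 CPM, GPA33 with 0.918 and ISX with 0.969. The silent genes thus include the surface anion exchanger, the water channel, both guanylin peptides and the membrane carbonic anhydrase of mature colonocytes, while the microvillus genes EZR, VIL1, USH1C and EPS8L3 were abundant.

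Between genes, levels were compared on the authors' RPKM, the count divided by listed gene length and by the table total. EZR was highest in every group, at 67.3 RPKM in SW480, 73.9 in SW620, 101.8 to 109.1 in shNC and 148.1 to 159.8 in shFOXA2. In shNC it was followed by VIL1 at 26.0 to 27.5, EPS8L3 at 22.3 to 23.6, USH1C at 13.8 to 17.5, CDX2 at 5.45 to 7.12, PRAP1 at 2.60 to 4.88, SLC26A2 at 2.54 to 2.98 and CDH17 at 1.37 to 1.61. Neighbours in that order did not overlap, except PRAP1 and SLC26A2. In shFOXA2 the order differed at USH1C, at 19.3 to 19.4 RPKM, which lay above EPS8L3 at 17.8 to 18.5. By mean, KRT20 there also came before CDH17 (2.35 and 1.95 RPKM), though their libraries overlapped, at 1.95 to 3.01 and 1.87 to 2.07. In SW480, CDX2 at 13.9 RPKM came directly after EZR and above VIL1 at 10.6.

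**Figure D1:**
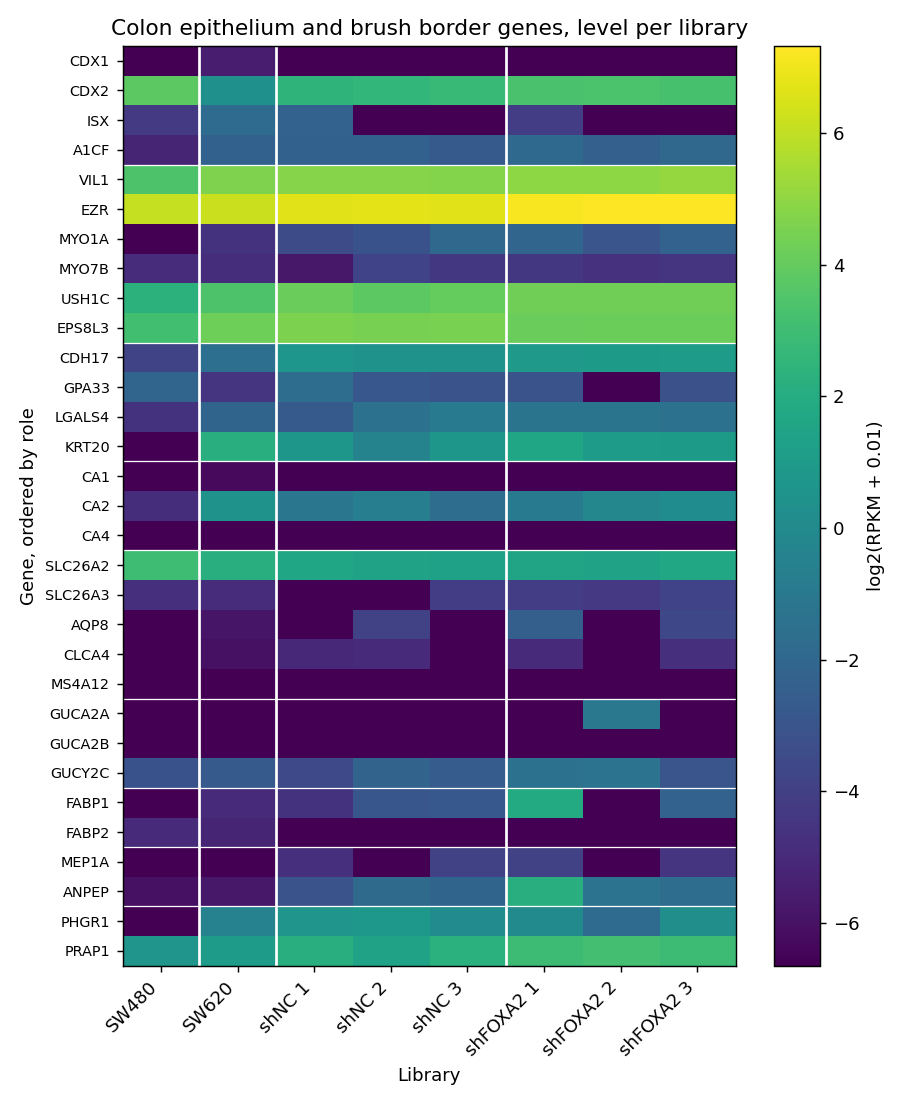
Heat map of the authors' RPKM on a log2 scale with 0.01 added, for the 31 genes (rows, ordered by role and separated by white lines) in the 8 libraries (columns). EZR, VIL1, USH1C and EPS8L3 are bright in every library, the rows of CA4, MS4A12 and GUCA2B are at 0 throughout, and CDX2 is brightest in SW480 and dimmest in SW620.

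Of the 31 genes, 16 had enough counts to be tested between shFOXA2 and shNC. The 14 silent genes and FABP1 did not pass the expression filter and have no test. With the FOXA2 hairpin 7 of the 16 rose (CDX2, EZR, VIL1, USH1C, PRAP1, KRT20 and CDH17), beside 19.2% of all 16100 tested genes. EPS8L3 alone fell, beside 19.8% of all tested genes, and 39.0% of them were called in either direction. The median log2 fold change of the 16 was 0.42, beside 0.0051 over all tested genes. In 9 of the 16 the 3 shFOXA2 libraries did not overlap the 3 shNC libraries, 8 above and 1 below, beside 48.7% of all tested genes, a share close to that of the members. The summed level of fibroblast markers also moved with the hairpin, from 11.1 to 13.2 CPM in shNC to 16.1 to 21.8 CPM in shFOXA2, and that of leukocyte markers from 23.0 to 28.7 to 33.1 to 39.8 CPM. Of the 8 fibroblast markers 2 were tested, the collagen COL1A1 and the proteoglycan LUM, and both rose (log2 fold changes of 1.06 and 0.53), while the collagens COL1A2 and COL3A1 were at 0 in all 6 libraries. Of the 8 leukocyte markers 6 were tested, and LYZ and CD4 rose (0.85 and 0.92), while CD3E was at 0 in all 6. The part of these markers in the results was not tested.

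**Figure D2:**
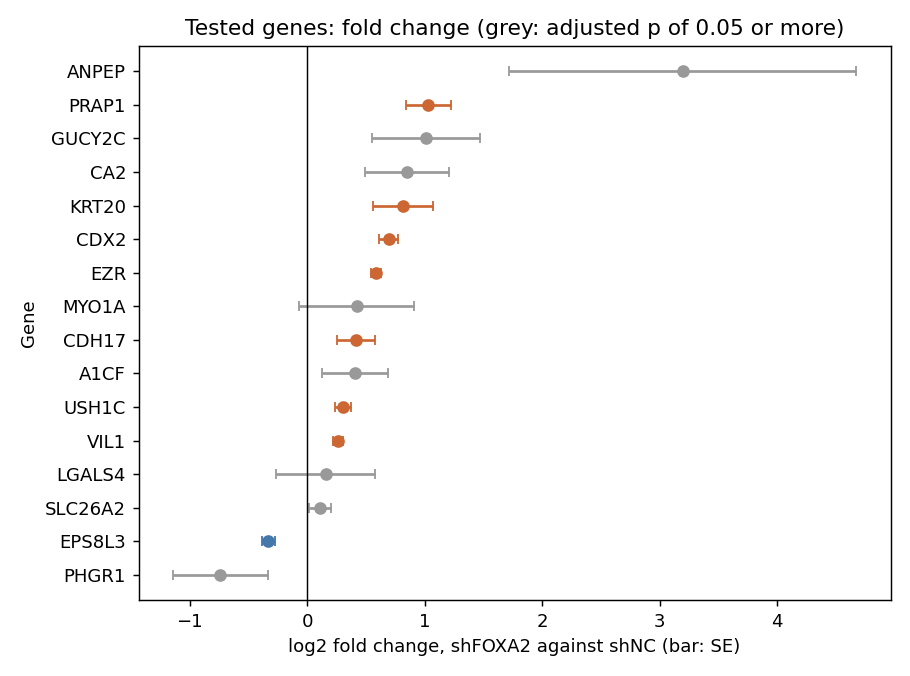
Log2 fold change of each tested gene, shFOXA2 against shNC, with its SE as a bar. Coloured points passed an adjusted p of 0.05 (orange higher, blue lower) and grey points did not, with EPS8L3 at -0.33 the only blue point and ANPEP at 3.20 carrying the widest bar.

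Among the transcription factors, CDX2, the homeobox factor of intestinal identity, rose with the FOXA2 hairpin (identifier ENSG00000165556.9, GRCh38 chromosome 13 from 27962137 to 27971139, minus strand). Its level was 22.8, 24.5 and 28.9 CPM in shNC and 41.3, 42.4 and 39.6 CPM in shFOXA2. Every shFOXA2 library lay above every shNC library. The means were 25.4 ± 3.14 (SD, n = 3) and 41.1 ± 1.44 (SD, n = 3), a log2 fold change of 0.69 (adjusted p = 5.16e-09, SE 0.08). Between the untreated lines CDX2 was lower in SW620: it had 4150 counts in SW480 and 510 in SW620, 11.2-fold higher in SW480 after scaling (95% counting interval 10.2 to 12.3). CDX1, its paralog, had 2 counts in SW620 and 0 in the other 7 libraries.

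A1CF, the RNA-binding cofactor of apolipoprotein B messenger RNA editing, stood at 1.86, 1.84 and 1.38 CPM in shNC and 2.59, 1.76 and 2.30 CPM in shFOXA2. The groups overlapped, and the log2 fold change of 0.41 (SE 0.28) did not pass (adjusted p = 0.263). In the lines A1CF had 12 counts in SW480 and 176 in SW620, a 10.6-fold ratio (5.93 to 20.97). Exons of ASAH2B overlap A1CF on the opposite strand. ASAH2B had 706 counts in SW480, 4019 in SW620 and 379 to 605 in the hairpin libraries. The strand setting of the counting was not given, and the part of ASAH2B reads in the A1CF values was not tested. ISX, an intestine-specific homeobox factor, was silent by the limit above but had 93 counts in SW620 and 10 in SW480, a 6.74-fold ratio (3.51 to 14.5). In the hairpin libraries ISX had 9 counts in shNC replicate 1, 2 in shFOXA2 replicate 1 and 0 in the other 4.

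Since CDX2 and KRT20 both rose, promoter sequence is given for members with a short match to a gut factor motif in the start region. MS4A12 held such matches too, but its sequence is not printed. RefSeq promoters on GRCh38.p14 matched 21 of the 31 symbols, and the 250 bases before each start were searched on both strands. The percentages count each promoter, whereas a member counts once if any of its promoters held a match. The motifs were TGTTTAC (forkhead factors), TTTATG (CDX factors) and CAAAGTCCA (HNF4), and none of their matches in members overlapped. TGTTTAC was held by 2.98% of 35116 promoters and by 1 of 21 members, CDX2, beginning 13 bases before the start, at chr13:27969316-27969338 on the minus strand. Capitals mark the motif in either orientation.
CDX2: atagagtcttGTAAACActcgtt
TTTATG was held by 9.64% of promoters and by 4 of 21 members, of which CLCA4, FABP1 and MS4A12 were silent or untested and KRT20 rose. The KRT20 match lies 29 bases before the start at chr17:40885256-40885281, the CLCA4 match at chr1:86546922-86546947 and the FABP1 match at chr2:88128136-88128161.
KRT20: ctgtggacttCATAAAaggctagctc
CLCA4: cttagtcactTTTATGtaacatataa
FABP1: tgaacctggcCATAAAggaatcaaca
CAAAGTCCA was held by 0.325% of promoters and by 1 of 21 members, MYO1A. The MYO1A match lay in only 1 of its promoters, at chr12:57050141-57050169 on the minus strand.
MYO1A: aggaacagtcTGGACTTTGtgctgatcag
A match is a description of the letters, and no binding was measured.

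The whole windows of KRT20 and EZR show how unlike the start regions of members are. KRT20, at 0 counts in SW480, has 41.2% G and C in chr17:40885243-40885492, and EZR, abundant in all libraries, has 80.8% in chr6:158818236-158818485, both on the minus strand. The EZR window held none of the 3 motifs.
KRT20: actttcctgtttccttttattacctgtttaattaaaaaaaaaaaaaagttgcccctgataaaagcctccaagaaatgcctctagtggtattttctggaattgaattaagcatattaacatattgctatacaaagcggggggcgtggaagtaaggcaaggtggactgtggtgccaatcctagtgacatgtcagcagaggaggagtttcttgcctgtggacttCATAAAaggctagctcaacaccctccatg
EZR: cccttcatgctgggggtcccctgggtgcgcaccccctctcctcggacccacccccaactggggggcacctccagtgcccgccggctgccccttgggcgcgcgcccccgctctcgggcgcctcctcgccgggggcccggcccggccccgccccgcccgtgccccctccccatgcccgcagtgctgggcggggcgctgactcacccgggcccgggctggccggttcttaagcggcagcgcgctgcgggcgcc
Over the 10 silent members with a promoter, G and C content ran from 30.4% to 61.2% with a median of 54.8%. It ran from 35.6% to 80.8% with a median of 61.2% over the 11 other members, and the median of all promoters was 58.0%. The ranges overlap, and the difference was not tested.

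The brush border cytoskeleton held the most abundant members and moved in both directions. EZR, ezrin, which ties microvillus actin to the membrane, rose the most among them (ENSG00000092820.13, chromosome 6 from 158765741 to 158819412, minus strand). It stood at 344.9, 361.8 and 336.7 CPM in shNC and 497.6, 540.4 and 525.6 CPM in shFOXA2. The groups were far apart relative to their spread, with means of 348 ± 12.8 and 521 ± 21.8 (SD, n = 3 each) and a log2 fold change of 0.58 (adjusted p = 7.82e-15, SE 0.04). The antisense gene EZR-AS1 overlaps EZR and had 16 to 28 counts in the hairpin libraries; the strand setting of the counting was not given in the sources used here. EZR was nearly level between the lines, with 16232 counts in SW480 and 23658 in SW620, 1.06-fold higher in SW620 after scaling (1.04 to 1.08).

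VIL1, villin, which bundles and severs actin in microvilli, stood at 193.6, 187.8 and 177.5 CPM in shNC and 215.4, 220.0 and 235.2 CPM in shFOXA2 (ENSG00000127831.6, chromosome 2 from 218419092 to 218453295, plus strand). It rose without overlap but by little, a log2 fold change of 0.26 (adjusted p = 8.32e-06, SE 0.05). Exons of USP37 overlap it on the opposite strand, with 497 to 820 counts in the hairpin libraries. USH1C, harmonin, the scaffold under the links between microvillus tips, stood at 74.3, 57.6 and 66.4 CPM in shNC and 81.5, 81.9 and 81.3 CPM in shFOXA2. Its shFOXA2 libraries lay above all shNC libraries with a mean of 81.6 ± 0.28 (SD, n = 3), and its log2 fold change was 0.30 (adjusted p = 0.00128, SE 0.07).

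EPS8L3, a member of the family of actin-regulating proteins that includes EPS8, fell (ENSG00000198758.6, chromosome 1 from 109750080 to 109764027, minus strand). It stood at 82.7, 76.4 and 78.9 CPM in shNC and 61.9, 63.8 and 63.9 CPM in shFOXA2, all 3 below the lowest shNC library. The means were 79.4 ± 3.18 and 63.2 ± 1.11 (SD, n = 3 each), and the log2 fold change was -0.33 (adjusted p = 4.05e-06, SE 0.05). MYO1A, the motor that links the actin bundle to the microvillus membrane, was near the limit of detection, at 0.39, 0.46 and 1.06 CPM in shNC and 1.00, 0.54 and 0.90 in shFOXA2 (log2 fold change 0.42, adjusted p = 0.534, SE 0.49). MYO7B, the motor at the tip links, had 1 to 7 counts in each hairpin library.

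Between the untreated lines 3 abundant cytoskeletal members were about as far apart as each other. VIL1 had 5300 counts in SW480 and 16460 in SW620, 2.25-fold higher in SW620 (2.18 to 2.32). EPS8L3 was 2.15-fold higher (2.05 to 2.26) and USH1C 2.09-fold higher (1.98 to 2.22), also in SW620. These intervals cover counting error only, since each line has 1 library. MYO7B, with 15 and 21 counts, was at a ratio of 1.01 (0.499 to 2.12).

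**Figure D3:**
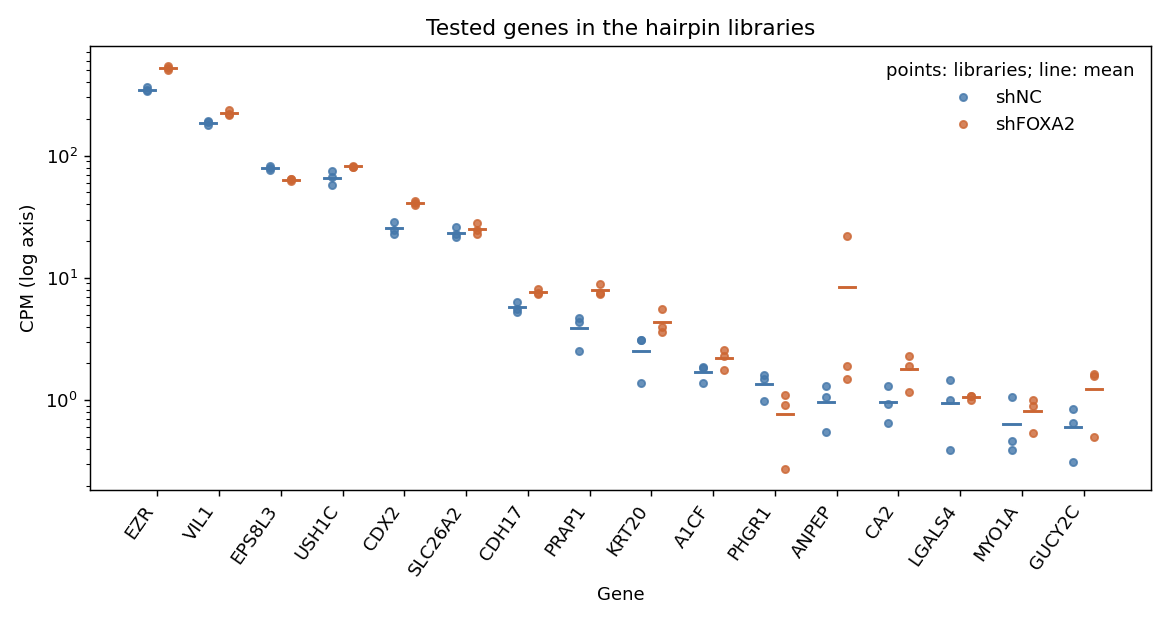
CPM of the 16 tested genes on a log axis, with each library as a point and the group mean as a line, shNC in blue and shFOXA2 in orange. The EZR points sit at 337 to 362 in shNC and 498 to 540 in shFOXA2, and the single high ANPEP point at 21.9 is shFOXA2 replicate 1.

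Among the adhesion and keratin genes, KRT20, the intermediate filament keratin of surface colonocytes, stood at 3.11, 1.38 and 3.09 CPM in shNC and 5.59, 3.93 and 3.60 CPM in shFOXA2 (ENSG00000171431.3, chromosome 17 from 40875941 to 40885227, minus strand). It rose without overlap, with means of 2.53 ± 0.99 and 4.37 ± 1.07 (SD, n = 3 each) and a log2 fold change of 0.81 (adjusted p = 0.0120, SE 0.26). The call was lost without shFOXA2 replicate 1, the highest library (0.57, adjusted p = 0.116), and without shNC replicate 2, the lowest (0.51, adjusted p = 0.107). KRT20 was the member farthest apart between the lines, with 0 counts in SW480 and 801 in SW620. Against the 3-count limit in SW480 it was at least 194-fold higher in SW620.

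CDH17, liver-intestine cadherin, stood at 6.37, 5.30 and 5.60 CPM in shNC and 7.34, 7.59 and 8.09 CPM in shFOXA2 (ENSG00000079112.5, chromosome 8 from 94127171 to 94217303, minus strand). The groups did not overlap, and the log2 fold change of 0.41 (SE 0.16) passed narrowly (adjusted p = 0.0393). The call was lost with the DESeq2 Wald test (adjusted p = 0.123) and without the expression filter (0.102). It was also lost when shFOXA2 replicate 1 was left out (adjusted p = 0.0567), and likewise shFOXA2 replicate 2 (0.0713), shFOXA2 replicate 3 (0.146), shNC replicate 2 (0.144) or shNC replicate 3 (0.106). In the lines CDH17 had 18 counts in SW480 and 124 in SW620, a 4.99-fold ratio (3.03 to 8.70).

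LGALS4, the lectin galectin-4 of the gut epithelium, stood at 0.39, 1.00 and 1.46 CPM in shNC and 1.08, 1.08 and 1.00 CPM in shFOXA2. The groups overlapped (log2 fold change 0.16, adjusted p = 0.801, SE 0.42), and the direction turned without shNC replicate 1 (-0.23). It had 6 counts in SW480 and 55 in SW620, a 6.64-fold ratio (2.87 to 18.9). GPA33, the A33 antigen of colon epithelium, was silent and ran the other way, with 49 counts in SW480 and 10 in SW620, 6.76-fold higher in SW480 (3.38 to 14.97).

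The carbonic anhydrases were represented by CA2 alone, the soluble enzyme, since CA1 had 1 count in SW620 and 0 elsewhere and CA4 had none. CA2 (ENSG00000104267.5, chromosome 8 from 85463852 to 85481493, plus strand) stood at 0.93, 1.31 and 0.65 CPM in shNC and 1.17, 1.90 and 2.30 CPM in shFOXA2. One shFOXA2 library lay inside the shNC range, and the log2 fold change of 0.85 (SE 0.36) did not pass (adjusted p = 0.0580). Without shFOXA2 replicate 1 it passed (1.12, adjusted p = 0.0223), as it did without shNC replicate 2 (1.13, adjusted p = 0.0332). In the lines CA2 had 4 counts in SW480 and 284 in SW620, a 51.5-fold ratio (19.9 to 190).

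Of the transport genes, SLC26A2, a sulfate transporter, was the one expressed. It stood at 26.0, 22.7 and 21.5 CPM in shNC and 24.5, 22.8 and 28.2 CPM in shFOXA2, and the groups overlapped (log2 fold change 0.11, adjusted p = 0.378, SE 0.09). With 4903 counts in SW480 and 3535 in SW620 it was 1.91-fold higher in SW480 (1.83 to 2.00). Exons of TIGD6 overlap SLC26A2 on the opposite strand, with 820 counts in SW480, 705 in SW620 and 66 to 145 in the hairpin libraries. SLC26A3, a relative of SLC26A2 and the chloride and bicarbonate exchanger of surface colonocytes, had at most 8 counts in any library. The water channel AQP8 had at most 3 counts and CLCA4, a protein of the family named for calcium-activated chloride channels, at most 2.

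In the guanylin pathway the receptor was detected and the peptides were not. GUCY2C, the guanylate cyclase receptor, stood at 0.31, 0.84 and 0.65 CPM in shNC and 1.59, 1.63 and 0.50 CPM in shFOXA2. The third shFOXA2 library lay inside the shNC range, and the log2 fold change of 1.01 (SE 0.46) did not pass (adjusted p = 0.0799), though it did without that library (1.39, adjusted p = 0.0223). GUCY2C had 32 counts in SW480 and 57 in SW620, a ratio of 1.29 whose interval includes equality (0.823 to 2.06). Exons of PLBD1-AS1, which has no entry under that symbol in the deposited tables, overlap GUCY2C on the opposite strand. GUCA2A, guanylin, had 2 counts in shFOXA2 replicate 2 and 0 in the other 7 libraries, and GUCA2B, uroguanylin, had none.

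Among the fatty acid binding and protease genes, ANPEP and FABP1 turned on a single library, shFOXA2 replicate 1. ANPEP, aminopeptidase N of the brush border, had 262 counts there and 7 to 17 in the other 5 hairpin libraries. Its level was 0.54, 1.31 and 1.06 CPM in shNC and 21.9, 1.90 and 1.499 CPM in shFOXA2, without overlap but also without a call (log2 fold change 3.20, adjusted p = 0.179, SE 1.48). Without shFOXA2 replicate 1 the log2 fold change was 0.78 (adjusted p = 0.160). FABP1, the fatty acid binding protein of liver and gut, had 108 counts in the same library, 0 and 5 in the other shFOXA2 libraries, and 1, 4 and 4 in shNC. Outside the group, APOB, the apolipoprotein of chylomicrons and liver lipoproteins, had 1882 counts in shFOXA2 replicate 1 against 41 to 65 in the other 5, and APOA1 46 against 1 to 5. The 11 genes listed for lipid handling summed to 175.9 CPM in that library, 19.4 to 23.3 in the other shFOXA2 libraries and 18.3 to 20.3 in shNC. The excess was not confined to lipid genes. Among the listed apical enzymes and transporters, DPP4 had 792 counts in that library against 27 to 69 in the other 5, and ABCG2 179 against 2 to 10. SLC3A1 of the same list had 219 against 129 to 259. That list summed to 419.0 CPM in shFOXA2 replicate 1, 353.7 to 358.7 in the other shFOXA2 libraries and 275.1 to 285.8 in shNC. The part of whatever sets this library apart in the ANPEP and FABP1 values was not tested. FABP2, the intestinal form, had 4 counts in each untreated line and 0 in the hairpin libraries, and MEP1A, a meprin protease, had at most 2 counts.

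The remaining colonocyte genes were PRAP1 and PHGR1. PRAP1, a small secreted acidic protein of gut and liver epithelium, rose (ENSG00000165828.9, chromosome 10 from 133347146 to 133352683, plus strand). It stood at 4.35, 2.53 and 4.71 CPM in shNC and 7.51, 8.95 and 7.40 CPM in shFOXA2, without overlap. The means were 3.87 ± 1.17 and 7.95 ± 0.86 (SD, n = 3 each), a log2 fold change of 1.03 (adjusted p = 2.79e-05, SE 0.19), the largest among the genes called. Its exons are shared with the read-through gene ZNF511-PRAP1, which has no entry under that symbol in the deposited tables. Reads of the read-through may thus be counted in PRAP1, and their part was not tested. PRAP1 had 111 counts in SW480 and 200 in SW620, a ratio of 1.31 (1.03 to 1.66).

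PHGR1, a small protein rich in proline, histidine and glycine, stood at 1.48, 1.61 and 0.97 CPM in shNC and 0.92, 0.27 and 1.10 CPM in shFOXA2. The groups overlapped, and the log2 fold change of -0.74 (SE 0.40) did not pass (adjusted p = 0.150). In the lines PHGR1 had 0 counts in SW480 and 66 in SW620, at least 15.9-fold higher in SW620.

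Taken over the untreated lines, 17 of the 31 genes had at least 20 counts in a line. With 1 CPM added to each level, which damps low genes, KRT20 was at least 4-fold higher in SW620, beside 2.26% of the 21343 genes compared, and CDX2 was at least 4-fold higher in SW480, beside 2.90%. Counted without that addition, and with counts below 3 raised to 3, 7 members were at least 4-fold higher in SW620 (A1CF, CA2, CDH17, ISX, KRT20, LGALS4 and PHGR1), beside 7.33% of genes. CDX2 and GPA33 were then as far apart in the other direction, beside 8.04%. FOXA2 was 17.9-fold higher in SW620 (16.0 to 20.1), with 319 and 7882 counts. There was 1 library per line, so none of these ratios has a replicate check.

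**Figure D4:**
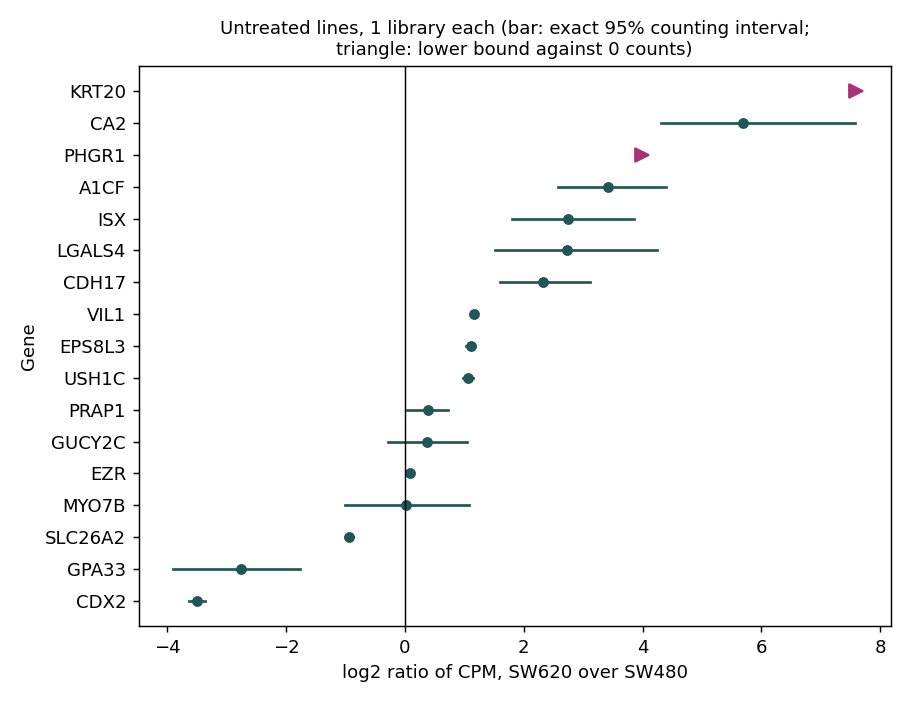
Log2 ratio of CPM, SW620 over SW480, for the 17 genes with at least 20 counts in a line, with exact 95% counting intervals as bars and triangles for lower bounds against 0 counts. KRT20 lies farthest right (at least 194-fold), CDX2 farthest left (11.2-fold higher in SW480), and EZR next to 0.

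The control hairpin libraries did not simply repeat untreated SW620. On the authors' RPKM, 19 members could be compared, those with at least 20 counts in untreated SW620 or over the 3 shNC libraries together. The mean of shNC was at least 4-fold higher for 5 of them, beside 2.53% of 20471 genes: CDX2 4.795-fold, CDH17 4.46-fold, GPA33 5.22-fold, MYO1A 4.72-fold and ANPEP 23.3-fold. The last 3 had only 10, 13 and 4 counts in untreated SW620. Untreated SW620 was at least 4-fold higher for ISX (4.23-fold), beside 6.81% of genes. KRT20 was at 4.52 RPKM in SW620 and 0.753 to 1.70 in shNC, and CA2 at 1.39 and 0.311 to 0.619, so both lay below untreated SW620 in all 3 shNC libraries. CDX2 was at 1.29 RPKM in untreated SW620, 5.45 to 7.12 in shNC and 9.59 to 10.2 in shFOXA2, against 13.9 in SW480. The hairpin vector, the puromycin selection, the sequencing depth and the mitochondrial share all differ between untreated SW620 and shNC and cannot be told apart.

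**Figure D5:**
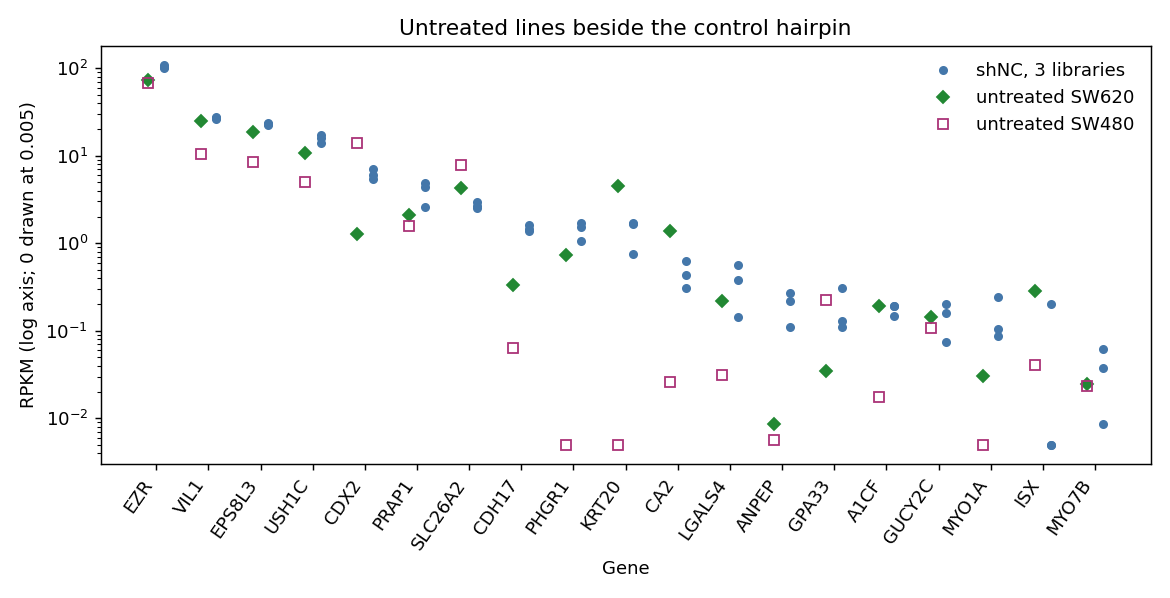
The authors' RPKM on a log axis for 19 genes, with the 3 shNC libraries as blue points, untreated SW620 as a green diamond and untreated SW480 as an open square. CDX2 and CDH17 in shNC lie above untreated SW620, while KRT20 and CA2 lie below it.

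Other genes of the brush border and of gut differentiation, from lists that leave out the 31, moved in both directions with the FOXA2 hairpin. Of 22 genes of the actin core and tip-link complex, 21 were tested, 7 rose and 3 fell, beside 19.2% and 19.8% of all tested genes, with a median log2 fold change of 0.01, between -0.05 and 0.05 with a library left out. The 3 that fell were ESPN, the bundler espin, by 1.30 on the log2 scale (adjusted p = 2.63e-09, SE 0.15), the motor MYO1D by 0.61 (adjusted p = 4.61e-10, SE 0.07) and the membrane-curving adaptor BAIAP2L1 by 0.45 (adjusted p = 1.08e-08, SE 0.06). With any library left out the count of rises was below 7. It was 4 without shFOXA2 replicate 1, 3 without shFOXA2 replicate 2 and 5 without shFOXA2 replicate 3. Without shNC replicate 1 it was 5, and without shNC replicate 2 or 3 it was 4. Of 27 apical enzymes and transporters 11 were tested, with a median of 0.38. Of these 2 rose and none fell, beside 19.2% and 19.8% of all tested genes, and 4 rose without shFOXA2 replicate 1. The 2 were the monocarboxylate carrier SLC16A1 (0.39, adjusted p = 1.33e-09, SE 0.04) and the efflux pump ABCB1 (0.28, adjusted p = 0.00116, SE 0.07).

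Of 7 genes of the guanylin and cyclic GMP pathway 4 were tested, with a median log2 fold change of -0.39. None rose and 2 fell, beside 19.2% and 19.8% of all tested genes. The 2 were PRKG1, a cyclic GMP-dependent kinase (-0.75, adjusted p = 0.00315, SE 0.21), and SLC9A3, the apical sodium and proton exchanger (-0.60, adjusted p = 0.00556, SE 0.18), and 1 fell without shNC replicate 3. That median was -0.03 without shNC replicate 2 and -0.25 without shFOXA2 replicate 2, each over 5 tested genes. Of 22 further mature colonocyte genes 8 were tested, 1 rose and 2 fell, beside 19.2% and 19.8% of all tested genes. Their median was 0.20, or -0.20 without shFOXA2 replicate 1 and 0.11 without shNC replicate 2. The creatine kinase CKB fell by 0.93 on the log2 scale (adjusted p = 2.86e-12), the sodium channel subunit SCNN1A fell by 0.40 (adjusted p = 1.13e-08) and the tetraspanin TSPAN1 rose by 0.68 (adjusted p = 5.35e-05).

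Of 17 gut transcription factors 12 were tested, 5 rose and 3 fell, beside 19.2% and 19.8% of all tested genes. Their median log2 fold change was 0.13, or 0.07 without shFOXA2 replicate 1, 0.20 without shFOXA2 replicate 3 and 0.21 without shNC replicate 2. KLF5, a factor of proliferating crypt cells, rose by 0.44 (adjusted p = 1.01e-11, SE 0.04), KLF4, a factor of differentiated colonocytes, by 0.86 (adjusted p = 2.96e-10, SE 0.09) and the nuclear receptor HNF4A by 0.53 (adjusted p = 9.02e-09, SE 0.07). Of 12 crypt stem cell genes 11 were tested, 3 rose and 4 fell, beside the same shares. Their median was -0.09, or -0.05 without shFOXA2 replicate 2, -0.20 without shNC replicate 1 and -0.03 without shNC replicate 2. ASCL2, a stem cell factor, fell by 0.91 on the log2 scale (adjusted p = 2.92e-19), while the surface protein CD44 (1.21, adjusted p = 1.505e-15) and the Wnt feedback gene AXIN2 (0.57, adjusted p = 6.48e-15) rose.

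Few genes of the other gut lineages were expressed well enough to test. Among all tested genes 19.2% rose and 19.8% fell. Of the goblet cell genes 4 were tested: MUC2, the secreted mucin, rose (0.65, adjusted p = 0.00223) and TFF3, the trefoil peptide, fell (-0.45, adjusted p = 0.00151), and without shNC replicate 1 a second gene fell. Of the enteroendocrine genes 3 were tested: SCG2 rose (0.85, adjusted p = 1.39e-10) and CHGB fell (-0.57, adjusted p = 1.25e-04), both granule proteins, and without shFOXA2 replicate 3 the rises were 2. Of 3 lipid handling genes tested, MTTP, the lipid transfer protein, rose (1.08, adjusted p = 0.0246), a call lost without shFOXA2 replicate 1 or shNC replicate 3.

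The marker lists of other cell types gave few tested genes, beside 19.2% rising and 19.8% falling among all tested genes. Of the epithelial markers, KRT19 and EPCAM fell by 0.13 each on the log2 scale and KRT18 rose by 0.11. The rise was lost without shFOXA2 replicate 2 or 3, or shNC replicate 2 or 3, and both falls without shFOXA2 replicate 1. The fibroblast markers COL1A1 and LUM rose with adjusted p = 4.50e-04 and 0.00111, and the leukocyte markers LYZ and CD4 with adjusted p = 4.95e-05 and 5.89e-05. COL1A1, LUM, LYZ and CD4 were also present in untreated SW620, with 203, 715, 904 and 694 counts. The leukocyte marker PTPRC had 0 counts in both untreated lines and 9 to 42 in the hairpin libraries. It was tested and not called (log2 fold change -0.23, adjusted p = 0.804). No endothelial marker passed the filter, and their summed level was 0.691 to 3.57 CPM in shNC and 0.813 to 1.59 CPM in shFOXA2.

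Between the untreated lines the same lists also held large ratios in both directions. In the tip-link list ANKS4B, the scaffold that binds harmonin, was 26.6-fold higher in SW620 (10.2 to 99.1) and BAIAP2L2 15.5-fold (11.6 to 21.1). Among apical genes XPNPEP2 was at least 52.9-fold and SLC9A2 48.1-fold (24.1 to 113) higher in SW480. PRKG1 was 273-fold higher in SW620 (75.3 to 2257), and PDE9A, which degrades cyclic GMP, was 6.34-fold higher in SW480 (5.25 to 7.69). Among the further mature colonocyte genes, the prostaglandin-degrading enzyme HPGD had 2481 counts in SW480 and 4 in SW620, an 856-fold ratio (334 to 3143). The magnesium channel TRPM6 had 344 and 1, a 475-fold ratio that rests on that 1 count (84.6 to 18800). HNF4G was 90.1-fold higher in SW620 (35.0 to 332) and MAF 28.5-fold higher in SW480 (17.8 to 48.6). In SW620 the stem cell genes SMOC2 and LGR5 were at least 1100-fold and 43.3-fold (31.0 to 62.3) higher, TFF3 was 473-fold higher (184 to 1736) and SCG2 175-fold (68.3 to 645).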

How the data were processed

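Total RNA of SW480 and SW620 cells was sequenced in 8 libraries, with 1 table per library. The deposited tables give, per the file columns, raw counts per gene, the gene length listed by the authors and the authors' RPKM, for 42713 entries. In every library the RPKM equalled the count divided by that length and the table total, within 1e-04 for genes above 20 counts. The submitters' processing notes name HOMER and hg19 without a role; the aligner, counting tool, strand setting and annotation were not given in the sources used here. Entries of a repeated symbol were represented by the one with the highest summed count.

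The 3 shFOXA2 and 3 shNC libraries were compared on the deposited counts in edgeR 4.0.16 (R 4.3.3) by its robust quasi-likelihood test, two-sided, with TMM scaling and edgeR's own filter on low counts, and p-values were adjusted by Benjamini-Hochberg over all 16100 genes tested, with a threshold of 0.05. The method was tested on simulated data. The simulation gave every gene the same relative spread and held no deviant library, so it does not cover the excess in shFOXA2 replicate 1. The SE is the log2 fold change divided by the square root of F. Pairs of replicates differed by a chi-square of 1.67 to 4.59 per degree of freedom, highest where replicate 1 was involved. The untreated lines have 1 library each: ratios of TMM-scaled CPM carry exact 95% counting intervals and no test. Locations come from GENCODE 29 on GRCh38, a build other than that in the submitters' notes, and promoters from RefSeq on GRCh38.p14.

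The members and lists were chosen with earlier results of these data known. Every member is accounted for. From each list the text names up to 3 genes by lowest p among those called and up to 2 by the largest ratio between the lines, with at least 100 counts and 4-fold. Alternatives covered scaling, filter, test (DESeq2 1.42.0, limma-voom 3.58.1), thresholds, pseudocount, repeated symbols, a replicate block and leaving out each library.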

Additional observations from a re-analysis of the deposited data

How the results depend on the processing

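With DESeq2 size factors, total counts, no filter, a filter of 1 CPM in 3 libraries, the DESeq2 Wald test, limma-voom, summed repeated symbols, an adjusted p of 0.01, a replicate block and each hairpin library left out, 5 to 7 members rose and 1 fell. With the replicate number as a block 6 rose and 1 fell, and 6140 genes were called against 6280 without it. CDH17 lost its call under the block (adjusted p = 0.0524), and no other member's call changed. Among the lists, the block ended the rise of KRT18 and gave 2 rises in place of 1 among further mature colonocyte genes. It also gave 6 rises in place of 7 among genes of the actin core and tip-link complex. The numbers did not pair the libraries: deviations of same-numbered libraries correlated at 0.0063, -0.0497 and 0.0042. Leaving out each library in turn gave 6 to 7 rises, 1 fall and 5298 to 5872 calls over all genes. Of 202 member values under 13 settings, 188 kept their direction and side of the threshold, 10 lost the call, 3 gained it and 1 reversed. The reversed value was that of LGALS4, not called in either fit, at -0.23 without shNC replicate 1 against 0.16, and with each library left out it ran from -0.23 to 0.59 (without shNC replicate 3).

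Between the lines, the number of members at least 4-fold higher in SW620 moved from 1 to 5 with a pseudocount of 0.1 CPM and to 7 with none and counts below 3 raised to 3. It was 6 at a fold of 2. In SW480 the number moved from 1 to 2 with no pseudocount. The count of silent members was 11 under 0.5 CPM and 18 under 2 CPM, against 14. Depth limits CA2, GUCY2C, LGALS4, MYO1A and PHGR1, which had few counts in the hairpin libraries.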
